A study of Mus musculus with 6 samples.

Results

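Myelin is the lipid-rich sheath that oligodendrocytes wrap around axons of the brain and spinal cord, and its proteins and lipids are made by a small group of genes that mature oligodendrocytes express at high levels. The genes described here are 9 of these: Mbp, Mog, Mag, Mobp, Cnp, Cldn11, Mal, Ugt8a and Ermn. They were chosen by symbol as genes of myelin proteins and mature oligodendrocytes, and all 9 were among the 24054 genes in the deposited table. Each was counted in all 6 mice, and all 9 passed the filter on low counts that left 14568 genes for testing.

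RNA with a poly-A tail from the substantia nigra (SN) was sequenced in 3 MitoParks and 3 littermate controls, aged 16 to 17 weeks by the series' description. MitoParks carry Cre at 1 copy of the dopamine transporter gene and floxed Tfam at both copies (Dat+/Cre, TFAM LoxP/LoxP), so Tfam, the mitochondrial transcription factor A gene, is deleted in cells that express the transporter. By the paper's methods, control mice are C57BL/6, lack Cre and carry 1 floxed Tfam copy (TFAM+/LoxP, Dat+/+). They could be born to MitoPark breeders or to a parental strain. Those methods do not state the background of the MitoParks. Oligodendrocytes are not the cells in which this Cre is driven, so the comparison asks whether their genes differed in mice whose dopamine neurons lack Tfam. The labels call the tissue brain, and the SN comes from the paper.

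Each library held between 8140777 and 10528602 expected counts. Levels below are CPM, counts scaled to the library total with TMM factors. The level of Tfam was 40.3, 44.3 and 45.4 CPM in littermate controls 1, 2 and 3, against 32.6, 33.0 and 33.2 CPM in MitoParks 1, 2 and 3, so all MitoParks were lower (log2 fold change -0.40, short of the fold cutoff used below). One library stood apart in dopamine neuron genes. Slc6a3, the dopamine transporter gene, was at 383.0 CPM in littermate control 3, against 72.5 and 65.2 CPM in the other littermate controls and 13.3, 51.0 and 40.9 CPM in MitoParks 1, 2 and 3. That library was also the highest for each of the 9 genes, so the comparison of the 9 genes and the medians of the gene lists are also given without it.

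The 9 genes were at nearly the same mean level in both groups, while the highest mouse had 2.1 to 2.91 times the level of the lowest. None was a DEG, a gene past both an unadjusted p of 0.05 and a 1.5-fold difference (0 of 9), where 0.577% of all genes tested were. The p cutoff alone was passed by 0 of the 9 and by 1.11% of all genes tested. For none of the 9 were the groups separate, against 4.71% of all genes tested. Their median log2 fold change was 0.0161, beside -0.0047 for all genes tested.

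The upstream sequences of the genes were compared for shared letters. RefSeq promoters (GRCm38.p6) were found for 8 of the 9 genes, all but Mbp, and the 250 bases before the start site were searched on both strands for short motifs of lineage factors and of core promoters. Letters of the Myrf motif, CTGGCAC or CTGGTAC, were found for 3 of the 8 genes, Cnp, Mag and Mog, and in 5.94% of 32536 upstream windows of all genes (5.76% of those of the genes tested). Myrf is the factor that switches on myelin genes as oligodendrocytes mature. The Sox core ACAAAG, bound by Sox10 and its relatives, was found for Cnp, Mag and Mobp (3 of 8) and in 16.5% of all windows (12.5% of those of the genes tested). An E-box, CANNTG, was found for 3 of 8, in 66.2% of all windows and in 58.3% of those of the genes tested, and its form CAGATG for 0 of 8, in 14.4% and 10.4%. GC boxes, GGGCGG, were found for 2 of 8, in 33.0% of all windows and in 55.9% of those of the genes tested, and TATAAA for 0 of 8, in 12.3% and 6.64%. Genes were counted with a match in any of their windows, and Mag has several, while the percentages are of single windows. The units differ, so the shares cannot be compared directly. A match of letters is not a bound site, and no binding was measured.

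Shown here are the windows of the 3 genes with the Myrf letters and of Cldn11, which among the 9 stayed closest to their mean pattern over the mice, described further on, and holds neither these nor the Sox core. They lie at chr11:100574689-100574938 on the plus strand for Cnp, chr7:30914923-30915172 on the minus strand for Mag, chr17:37023399-37023648 on the minus strand for Mog and chr3:31149670-31149919 on the plus strand for Cldn11. Capitals mark the Myrf letters and the Sox core. For Mag, 1 of 3 windows is shown, and a second, overlapping it, holds the same matches.
Cnp: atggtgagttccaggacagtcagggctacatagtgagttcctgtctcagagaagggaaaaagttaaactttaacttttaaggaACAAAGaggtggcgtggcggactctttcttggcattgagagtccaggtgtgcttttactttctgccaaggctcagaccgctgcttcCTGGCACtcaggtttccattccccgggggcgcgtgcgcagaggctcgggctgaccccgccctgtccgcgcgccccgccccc
Mag: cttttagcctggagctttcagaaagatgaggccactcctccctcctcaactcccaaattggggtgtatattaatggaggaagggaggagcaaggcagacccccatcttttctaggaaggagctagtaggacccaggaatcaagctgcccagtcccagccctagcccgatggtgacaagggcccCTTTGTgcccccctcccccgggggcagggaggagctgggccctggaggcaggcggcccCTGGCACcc
Mog: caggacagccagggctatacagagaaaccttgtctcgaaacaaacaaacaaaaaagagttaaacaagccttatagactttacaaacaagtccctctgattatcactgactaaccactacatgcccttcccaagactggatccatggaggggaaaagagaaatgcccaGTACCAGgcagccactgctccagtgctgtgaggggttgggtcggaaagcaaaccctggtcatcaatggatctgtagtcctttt
Cldn11: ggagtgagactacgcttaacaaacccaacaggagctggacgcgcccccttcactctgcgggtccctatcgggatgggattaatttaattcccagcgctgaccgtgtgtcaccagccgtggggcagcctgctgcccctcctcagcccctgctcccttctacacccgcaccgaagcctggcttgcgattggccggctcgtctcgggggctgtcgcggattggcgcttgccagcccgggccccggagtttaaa
In the windows shown, the Myrf letters begin 81 bases before the start site in Cnp, 9 bases in Mag and, on the opposite strand, 83 bases in Mog. Before the start site of the overlapping second window of Mag they begin 68 bases away. The CTTTGT of Mag is the Sox core read on the opposite strand.

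The genes of the compact sheath come first. Mbp encodes myelin basic protein, which holds the inner faces of the myelin membrane together. Its level was 3014, 4821 and 8766 CPM in littermate controls 1, 2 and 3, against 4612, 5905 and 7695 CPM in MitoParks 1, 2 and 3. All 3 MitoParks lay between the lowest and the highest littermate control. The group means were 5534 ± 2942 CPM in littermate controls and 6071 ± 1548 CPM in MitoParks (SD, n = 3 each). The log2 fold change was 0.13 with a standard error of 0.34 and a 95% interval from -0.64 to 0.91 (edgeR, quasi-likelihood, unadjusted p = 0.707 and adjusted p = 0.999).

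Mobp, which encodes another small basic protein of compact myelin, was at 313.1, 481.0 and 784.0 CPM in the littermate controls, against 468.7, 517.0 and 691.7 CPM in the MitoParks. Littermate control 1 was again the lowest mouse and littermate control 3 the highest. The log2 fold change was 0.09, with an interval from -0.57 to 0.74. Mal encodes a proteolipid of myelin and other membranes. Its levels were 298.8, 389.8 and 725.9 CPM in littermate controls, against 371.8, 473.5 and 518.9 CPM in MitoParks. Here MitoParks 2 and 3 lay close together, well below littermate control 3, and the log2 fold change was -0.05 (interval -0.697 to 0.59).

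At the surfaces of the sheath, Mog encodes a glycoprotein of the outermost myelin membrane and Mag a glycoprotein of the membrane that faces the axon. Mog levels were 69.5, 82.1 and 165.2 CPM in littermate controls 1, 2 and 3, against 84.0, 96.6 and 140.0 CPM in MitoParks 1, 2 and 3. Mag was at 201.8, 257.0 and 494.8 CPM in littermate controls, against 242.4, 285.8 and 411.3 CPM in MitoParks. Both genes ranked the mice alike except that littermate control 2 and MitoPark 1, close to each other in both, changed places. Their log2 fold changes were 0.02 for Mog (interval -0.68 to 0.71) and -0.02 for Mag (interval -0.72 to 0.68).

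Cnp encodes an enzyme of the cytoplasm-filled parts of the sheath, and Cldn11 encodes the claudin that forms the tight junctions between its layers. The levels of Cnp were 362.3, 428.5 and 761.7 CPM in littermate controls, against 450.1, 483.0 and 643.8 CPM in MitoParks, the narrowest range of the 9 genes on the log2 scale. Cldn11 was at 181.3, 253.8 and 467.3 CPM in littermate controls, against 229.1, 305.0 and 373.4 CPM in MitoParks. Both were lowest in littermate control 1 and highest in littermate control 3. The log2 fold change was 0.02 for Cnp (interval -0.56 to 0.61) and 0.0077 for Cldn11 (interval -0.69 to 0.71). An exon of Cnp overlaps Dnajc7 on the opposite strand. The paper's library protocol used dUTP in place of dTTP, so strand may have been kept. Whether the counting used strand is not stated, so it is not known if both genes share reads of that stretch. Dnajc7 was at 183.6 to 229.7 CPM, a 1.25-fold range between mice. Annotated exons of Mobp and Ermn also overlap Gm38642, on the same strand, and Galnt5, on the opposite one, neither among the genes tested.

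Ugt8a encodes the enzyme that makes galactosylceramide, the main glycolipid of myelin, and Ermn encodes ermin, a cytoskeletal protein of mature oligodendrocytes. Ugt8a was at 95.6, 92.2 and 212.4 CPM in littermate controls, against 85.7, 160.4 and 137.4 CPM in MitoParks. Ermn was at 124.9, 164.6 and 314.2 CPM in littermate controls, against 141.4, 253.8 and 239.6 CPM in MitoParks. In both genes MitoPark 2 was above MitoPark 3, unlike in the other 7. For Ugt8a the lowest mouse was MitoPark 1, and for the other 8 genes it was littermate control 1. The log2 fold change was -0.06 for Ugt8a (interval -0.7997 to 0.68) and 0.07 for Ermn (interval -0.66 to 0.80). By edgeR, each of the 9 genes had an adjusted p of 0.999.

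**Figure D1:**
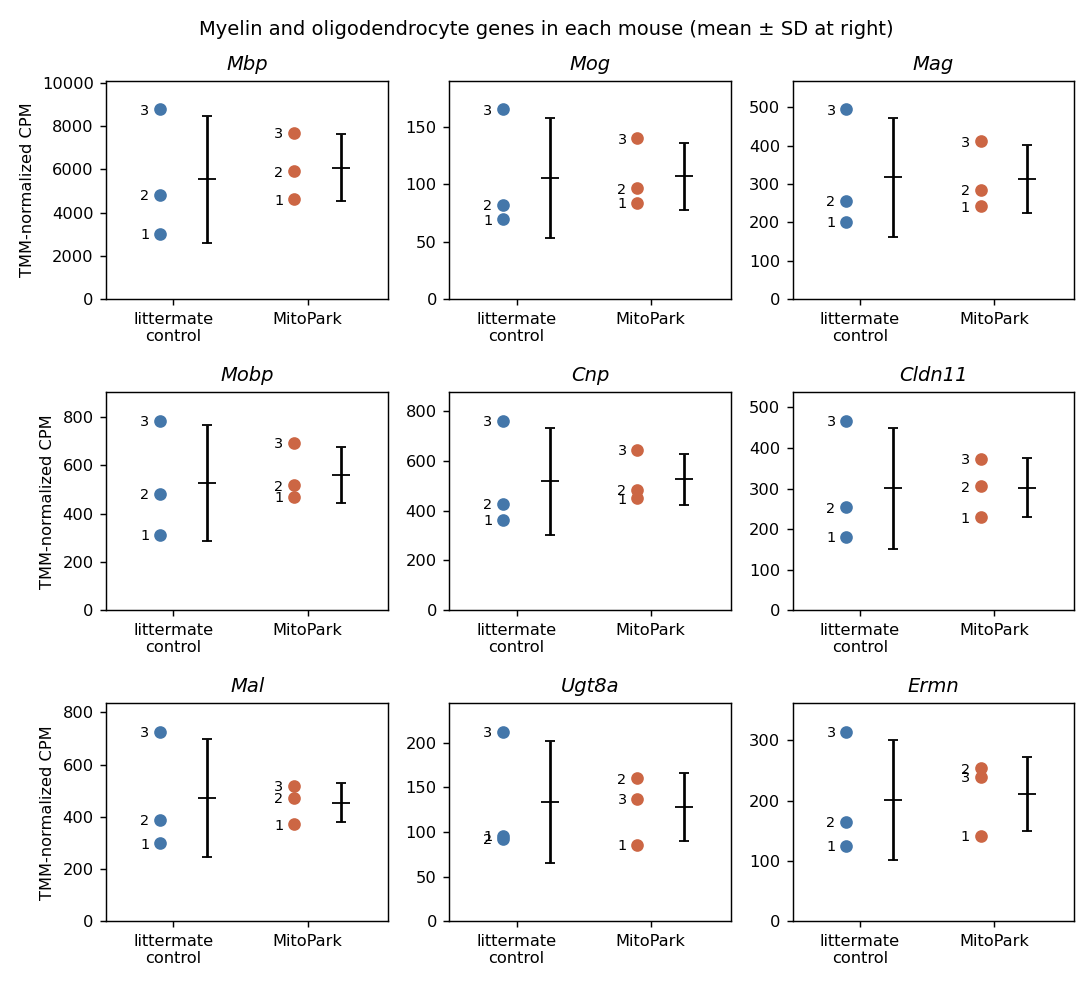
TMM-normalized CPM of each of the 9 genes, 1 panel per gene with an axis from 0, points numbered by mouse in littermate controls (blue) and MitoParks (orange), with the mean ± SD (n = 3) beside them. Littermate control 3 is the highest mouse in all 9 panels, and the groups overlap in each.

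The intervals are wide. Those of the 9 genes reached up to between 0.59 and 0.91 on the log2 scale and down to between -0.56 and -0.80, so all 9 held a 1.5-fold higher level in MitoParks and 7 of 9 a 1.5-fold lower one. Exact permutation of the group labels (two-sided) gave p between 0.7 and 1 for the 9 genes, where the smallest p possible with 3 mice a group is 0.1. In bulk tissue, fewer oligodendrocytes and less RNA per oligodendrocyte cannot be told apart.

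The sign of the difference depended on single mice, and its size changed most without littermate control 3. Without it, all 9 genes were higher in MitoParks, with log2 fold changes from 0.40 to 0.63 and a median of 0.476. By edgeR, 7 of the 9 then passed the p cutoff, where 2.56% of all genes did, and every adjusted p was 1. Mag and Ugt8a were the exceptions, with an unadjusted p of 0.0547 and 0.0606 in that fit by edgeR. Past both cutoffs stood 1 gene, Mbp, at 0.63 (edgeR, unadjusted p = 0.0277), where 1.5% of all genes did. Littermate control 3 was set apart partly as the highest mouse for all 9 genes, so leaving it out had to raise all 9 fold changes. The 9 genes also share a pattern over the mice. These counts are therefore not of independent results, and they describe the weight of that mouse only. Without littermate control 1, all 9 genes had log2 fold changes below 0, from -0.29 to -0.16, and none passed the p cutoff. Without MitoPark 3 all 9 were again below 0, with a median of -0.15.

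**Figure D2:**
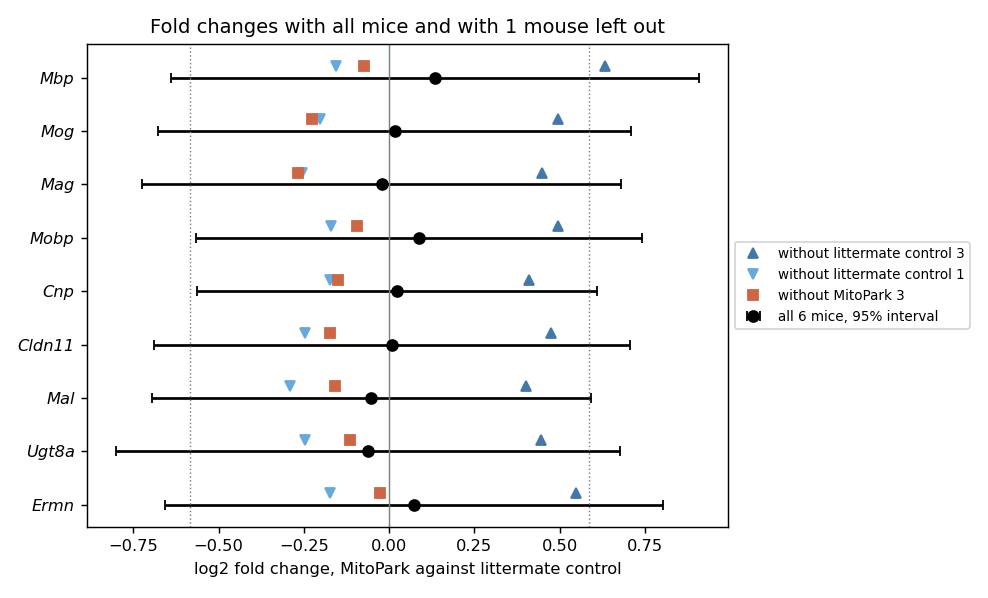
Log2 fold changes of the 9 genes in MitoParks against littermate controls with all 6 mice (black, 95% interval) and with 1 mouse left out (coloured points), with dotted lines at a fold change of 1.5. With all mice the values lie between -0.06 and 0.13. Without littermate control 3 they lie between 0.40 and 0.63, and without littermate control 1 between -0.29 and -0.16.

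What the 9 genes shared was their pattern over the 6 mice. As the mean of their log2 deviations, littermate controls 1, 2 and 3 stood at -0.604, -0.232 and 0.686 and MitoParks 1, 2 and 3 at -0.301, 0.093 and 0.359. Summed over the 9 genes, the level was 4661, 6970 and 12690 CPM in littermate controls, against 6686, 8480 and 10850 CPM in MitoParks. The 3 MitoParks all lay between littermate controls 1 and 3, and within each group the mice differed more than the group means did.

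Counting error is small beside this range, since even Mog, the gene with the fewest counts in littermate control 1, had 625 to 1692 counts per mouse. The SD of the log2 level over the 6 mice lay between 0.398 for Cnp and 0.557 for Mbp. Among the 10437 tested genes with a mean above 10 CPM the median SD was 0.154, and 4.47% had an SD of 0.398 or more. The highest mouse was 2.1 to 2.91 times the lowest for the 9 genes, beside a median of 1.41 times for all genes tested, where low genes add counting error.

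**Figure D3:**
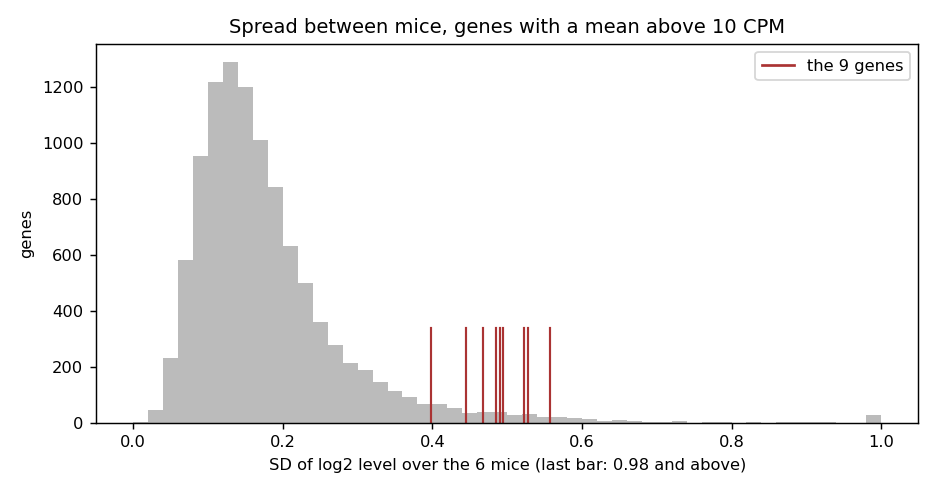
Histogram of the SD over the 6 mice of log2(CPM + 0.1) for the 10437 genes with a mean above 10 CPM, with the number of genes on the vertical axis and the 9 genes as red lines. The 9 genes lie between 0.398 and 0.557, to the right of the median of 0.154.

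Within this shared pattern some pairs followed each other more closely than others. Over the 36 pairs of the 9 genes, the SD over mice of the log2 ratio between both genes had a median of 0.155. It was smallest for Mog and Mag, the surface glycoproteins, at 0.042, followed by Cldn11 and Mal at 0.086. The widest was Mobp with Ugt8a at 0.352, and the 5 widest pairs all held Ugt8a. Against the mean pattern of the 9, Cldn11 deviated least, with an SD of the difference of 0.0395, and Ugt8a most, at 0.234. These genes share libraries and depth, so the values describe these mice only.

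Per kilobase of the longest coding transcript in GENCODE M21, Mbp had the highest mean level over the 6 mice, at 1210 CPM per kilobase. Cnp followed at 221.3, then Mal at 166.7, Mobp at 165.1, Cldn11 at 161.3 and Mag at 129.6 CPM per kilobase. The lowest levels were those of Mog at 62.3, Ermn at 56.8 and Ugt8a at 34.7 CPM per kilobase. Mal and Mobp were each above the next gene in this order in only 3 of 6 mice and cannot be ranked, while Mog was above Ermn in 5 of 6 and the other neighbours kept their order in all 6. Transcript length matters here, because with the median length of coding transcripts Mobp moved to second place, at 1090 CPM per kilobase.

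Other genes of mature oligodendrocytes showed the same pattern. In a list of 28, 26 were highest in littermate control 3 and 23 lowest in littermate control 1. A peak in littermate control 3 was not particular to such genes. It was also seen for 16 of 21 genes of cholesterol synthesis and 5 of 8 neuron markers, though for 1 of 7 astrocyte markers. Its share over all genes tested was not counted. None of the 28 was a DEG, and their median log2 fold change was 0.0311, with 15 above 0 and 13 below. The smallest p in the list was that of Hapln2, a link protein of the node of Ranvier (log2 fold change 0.31, interval -0.25 to 0.87, edgeR's quasi-likelihood test, unadjusted p = 0.238). Without littermate control 3, 19 of the 28 passed the p cutoff by edgeR, where 2.56% of all genes did. In that fit 7 were DEGs, where 1.5% of all genes were, 27 were above 0 and the median was 0.5185. The 28 genes share a pattern over the mice, so these counts are not of independent results.

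Genes of earlier stages had a narrower median range between mice, with single genes as wide as the 9 or wider. For 8 genes of oligodendrocyte precursors, the median range was 1.36-fold from the lowest to the highest mouse, and 3 were highest in littermate control 3. The widest of them was C1ql1, at 3.90-fold (8.16 to 32.1 CPM), beyond any of the 9. Pdgfra, the growth factor receptor that marks these cells, was at 81.8, 79.0 and 91.3 CPM in littermate controls, against 87.8, 83.4 and 69.1 CPM in MitoParks. The median log2 fold change of the 8 was -0.0275 (0.0206 without littermate control 3), none was a DEG, and the smallest p was that of Ptprz1 (log2 fold change -0.15, interval -0.45 to 0.16). For 7 genes of newly formed oligodendrocytes the median range was 1.49-fold, the median log2 fold change was 0.0507 and none was a DEG. Without littermate control 3 that median was 0.218 and Bcas1 was a DEG at 0.60, and without littermate control 2 it was -0.0487. Within that list Bcas1 ranged 3.16-fold between mice, as mature genes did, and Gpr17 only 1.45-fold. Tns3 had the smallest p there (log2 fold change 0.12, interval -0.12 to 0.37). The difference in range between stages was not tested.

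Of 10 transcription factors of the lineage, none was a DEG and 9 had a log2 fold change above 0, with a median of 0.0426. This direction depended on single mice. Without littermate control 2, 1 was above 0 and 9 below (median -0.0507), without MitoPark 3, 3 and 7 (median -0.0125), and without littermate control 1, 4 and 6 (median -0.0412), while without littermate control 3 all 10 were above 0 (median 0.3339). Myrf was at 69.0, 80.4 and 140.7 CPM in littermate controls, against 93.5, 97.0 and 121.8 CPM in MitoParks, with the mice in the same order as for Mog. Zfp488 was at 239.4, 235.2 and 259.0 CPM in littermate controls, against 278.0, 219.5 and 624.4 CPM in MitoParks. A single library, MitoPark 3, carries that difference, since without it the log2 fold change was 0.0238 in place of 0.61 (interval -0.12 to 1.34), and without MitoPark 2 it was 0.89 and past both cutoffs.

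Among the lipid genes of the sheath, 11 enzymes of sphingolipid metabolism held no DEG and had a median log2 fold change of 0.0274. The median was 0.2429 without littermate control 3 and between -0.0946 and -0.0817 without littermate control 1, littermate control 2 or MitoPark 3. Fa2h, which hydroxylates the fatty acids of myelin galactolipids, was at 46.95, 37.8 and 99.1 CPM in littermate controls, against 52.0, 55.25 and 74.8 CPM in MitoParks. Ugcg, which makes glucosylceramide, had the smallest p of the list, with a log2 fold change of -0.27 (interval -0.59 to 0.06). Of 21 genes of cholesterol synthesis none was a DEG, while 18 had a log2 fold change below 0, with a median of -0.11. Sqle, squalene epoxidase, was at 90.0, 90.9 and 97.35 CPM in littermate controls, against 81.6, 84.0 and 73.5 CPM in MitoParks. Sqle alone among these 21 genes had separate groups, a feature shared by 4.71% of all genes tested. Its log2 fold change of -0.22 had an interval from -0.45 to 0.01 (edgeR, unadjusted p = 0.0594, adjusted p = 0.999). Without littermate control 3 the list's median was -0.0379, with 10 above 0 and 11 below.

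Of 11 tested genes of axon contact and the node of Ranvier, none was a DEG, and the median log2 fold change was -0.0038 (0.0797 without littermate control 3). Cntnap1, the axonal partner of myelin at the paranode, had the smallest p (log2 fold change -0.14, interval -0.38 to 0.10). In a list of 7 genes that oligodendrocytes raise in damaged brain, 2 passed the p cutoff, where 1.11% of all genes tested did. C4b was the 1 DEG, and the median log2 fold change was 0.1365 (0.4171 without littermate control 3). The other gene had the smaller p (edgeR's quasi-likelihood test, unadjusted p = 0.00405) but was short of the fold cutoff. For 2 of the 7 the groups did not overlap, against 4.71% of all genes tested. C4b was at 45.2, 31.5 and 40.0 CPM in littermate controls, against 57.4, 48.8 and 90.05 CPM in MitoParks, with no overlap, a log2 fold change of 0.75 and an adjusted p of 0.999 by edgeR. Leaving out MitoPark 3 brought it to 0.45, below the fold cutoff. C4b is also made by other glia, and its counts can share reads with C4a. Serpina3n, usually named with it, had levels of 57.7, 35.0 and 23.5 CPM in littermate controls, against 51.4, 38.8 and 31.6 CPM in MitoParks, with a log2 fold change of 0.07.

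**Figure D4:**
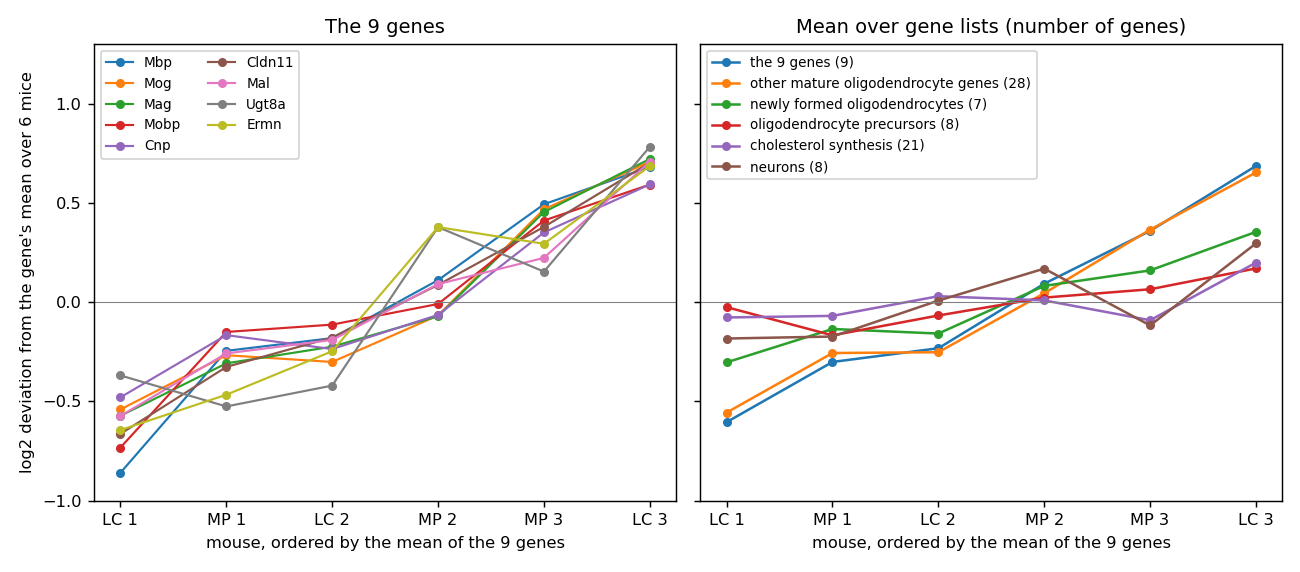
Log2 deviation from each gene's mean over the 6 mice (vertical axis) in each mouse (horizontal axis, ordered by the mean of the 9 genes, LC littermate control, MP MitoPark), for the 9 genes at left and for the mean of gene lists at right, with the number of genes in brackets. The 9 genes span from -0.604 to 0.686 in the mean, the 28 other mature oligodendrocyte genes from -0.556 to 0.653, and the 8 precursor genes from -0.167 to 0.170.

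Markers of other cells in the tissue were read beside these. Schwann cells, which make the myelin of nerves outside the brain, were read through a list of 9 genes. Pmp2, which encodes a lipid-binding protein of peripheral myelin, had 0 to 2 counts per mouse, and 5 of the 9 passed the filter, with no DEG, a median log2 fold change of 0.1362 (0.4677 without littermate control 3) and Ncmap as the gene with the smallest p (1.34 to 3.85 CPM). The summed level of 8 neuron markers was 4094, 4710 and 5803 CPM in littermate controls, against 3969, 5172 and 4086 CPM in MitoParks, with no DEG and a median log2 fold change of -0.1048 (-0.0121 without littermate control 3). Stmn2 had the smallest p of these markers (log2 fold change -0.16). The 4 dopamine neuron markers summed to 295.2, 311.0 and 971.3 CPM and to 181.6, 305.0 and 300.2 CPM, and 1 of them, Slc6a3, was a DEG (log2 fold change -2.30, -0.97 without littermate control 3). All 4 were highest in littermate control 3. Their median log2 fold change was -0.6857 with all mice and -0.0756 without littermate control 3. Without littermate control 1, 3 of the 4 were DEGs (Slc6a3, Ddc and Slc18a2), beside 133 of 14576 genes tested. Without littermate control 2, 3 of the 4 were DEGs (Slc6a3, Ddc and Th), beside 86 of 14581. Both fits give more weight to littermate control 3. Th, another of the 4, had a log2 fold change of -0.70 with all mice and 0.07 without that library.

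For 7 astrocyte markers the sum lay between 3367 and 4286 CPM, with no DEG and a median log2 fold change of 0.1236. Without littermate control 3 the median was 0.1784 and Gfap and Aqp4 were DEGs. Gfap among them was at 192.4, 170.8 and 351.9 CPM in littermate controls, against 254.7, 355.4 and 549.2 CPM in MitoParks. Its log2 fold change of 0.70 was not called by edgeR's quasi-likelihood test (unadjusted p = 0.0548). Gfap passed both cutoffs when littermate control 3 (1.09) or MitoPark 1 (0.93) was left out. Without littermate control 1 (0.57), littermate control 2 (0.51) or MitoPark 3 (0.36) it was below the fold cutoff. For 6 microglia markers the sum lay between 223.6 and 301.2 CPM (median log2 fold change 0.1549, and 0.2319 without littermate control 3, no DEG in either). Aif1, with the smallest p of these, was at 3.12 to 3.23 CPM in littermate controls, against 3.41 to 6.12 CPM in MitoParks. It was a DEG at 0.73 without MitoPark 1, and its log2 fold change fell to 0.30 without MitoPark 3. For 5 endothelial markers the sum lay between 94.7 and 149.9 CPM (median -0.0267, and 0.1148 without littermate control 3, no DEG in either, Cldn5 with the smallest p at a log2 fold change of 0.28). The part of these cells, of depth and of dissection in the pattern of the 9 genes was not tested.

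Outside all these lists, 10 genes with a mean above 10 CPM followed the mean pattern of the 9 most closely, by the SD over 6 mice of the difference in log2 deviation. They were Sept4 (0.04), D16Ertd472e (0.0647), Chdh (0.0851), Prr18 (0.0852), Pou3f1 (0.0862), Evi2a (0.0882), Gatm (0.091), Efhd1 (0.099), Arsg (0.1015) and Gltp (0.1125). Sept4, which encodes a septin, had levels of 163.0, 207.3 and 373.7 CPM in littermate controls, against 187.0, 255.5 and 302.8 CPM in MitoParks. Gatm, which makes the precursor of creatine, was at 140.3, 204.1 and 355.2 CPM in littermate controls, against 175.4, 265.0 and 279.0 CPM in MitoParks. Their log2 fold changes lay between -0.05 and 0.13, which, like their peak in littermate control 3, follows from the choice by pattern.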

How the data were processed

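Polyadenylated RNA from the SN of 3 MitoParks and 3 littermate controls was sequenced. The authors mapped reads to UCSC transcripts with Bowtie2 2.1.0, estimated expected counts per gene with RSEM 1.2.15 and deposited these expected counts without normalization, with between 11.9% and 14.1% of values per mouse not whole. The submitters' processing notes name a human genome build although the samples and symbols are from mouse, so no coordinates of the counts are given. The columns of the second arm are headed as treated and were matched by number to the samples labelled PD, the only arm that is not control.

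Expected counts were rounded, genes whose mean exceeded 1 CPM in either group were tested, and TMM normalization and edgeR 4.0.16 (R 4.3.3, quasi-likelihood test, group as the only term) were applied to all 14568 genes. DEGs passed an unadjusted p of 0.05 and a 1.5-fold change in either direction, the cutoffs that the paper's methods give for edgeR. Another section of those methods names an adjusted p below 0.05 by t-test. In the edgeR fit used here 0 genes had an adjusted p below 0.05. P-values were adjusted by the Benjamini-Hochberg method across all tested genes. Intervals are 95% intervals from the standard error and the moderated degrees of freedom. Exact permutation tests, deviations and SDs used log2(CPM + 0.1). Scripts were first tested on simulated data.

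The 9 genes, the gene lists and the rule for named genes were chosen with earlier results of these data known. Named genes are the 9, the DEGs or else the gene with the smallest p of each list, Tfam, Th, Slc6a3, and the 10 genes of the closest pattern. Myrf, Pdgfra, Bcas1, Gpr17, Fa2h, Serpina3n, Dnajc7, Pmp2, C1ql1, Ddc, Slc18a2 and Aqp4 were added after their values were seen. The paper's methods allow controls from MitoPark or parental strain litters, and the litter of each mouse is not given in the sources used here, so p-values measure the spread between these mice. Within groups, counts of any pair of mice differed by more than sampling noise (chi-square over degrees of freedom at least 10), and each mouse was 1 replicate. Alternatives were other normalizations, filters and tests (DESeq2 1.42.0, limma 3.58.1), the replicate block, each mouse left out and, added after the data were seen, the level of the 28 other mature oligodendrocyte genes as a term. Transcript lengths came from GENCODE M21, and promoters from RefSeq.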

Additional observations from a re-analysis of the deposited data

How the results depend on the processing

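The number of DEGs among the 9 genes was 0 under the other normalizations, filters and tests tried and with the replicate block, and ranged from 0 to 1 with each mouse left out. Their median log2 fold change ranged from -0.20 to 0.48 in those fits, and was 0.0841 with the block and -0.0191 with the level of the other mature oligodendrocyte genes as a term. The number of DEGs among all genes, 84, was 176 without the filter, 139 with that term (chosen after the data were seen), 126 with the block, and between 62 and 219 with each mouse left out, where 133 came without littermate control 1, 217 without MitoPark 2 and 219 without littermate control 3. The cause of these shifts was not tested. An adjusted p below 0.05 was reached by 0 genes in edgeR's quasi-likelihood test (161 had an unadjusted p below 0.05) and by 1 in its exact test, its likelihood ratio test and the block. With a sample left out, 1 group holds 2 mice.

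With the fold changes of the 9 near 0, signs changed easily. Mag was at 0.0023 with total counts, Mag, Mal, Ugt8a and Efhd1 at 0.0503, 0.0371, 0.0053 and 0.0292 with limma-voom, and at 0.049, 0.0371, 0.0005 and 0.0235 with the block. With the oligodendrocyte term, Mog was at -0.02, Cnp at -0.0082, Cldn11 at -0.0213 and Sept4 at -0.0363, and the standard errors of the 9 lay between 0.102 for Mog and 0.161 for Ugt8a. With each mouse left out, log2 fold changes of the 9 ran as follows: Mbp from -0.16 to 0.63, Mog from -0.23 to 0.50, Mag from -0.27 to 0.45, Mobp from -0.17 to 0.49, Cnp from -0.17 to 0.41, Cldn11 from -0.25 to 0.48, Mal from -0.29 to 0.40, Ugt8a from -0.27 to 0.45, Ermn from -0.17 to 0.55. Those of other named genes that changed sign ran as Sept4 from -0.22 to 0.42, D16Ertd472e from -0.10 to 0.53, Chdh from -0.13 to 0.50, Prr18 from -0.20 to 0.55, Pou3f1 from -0.21 to 0.60, Evi2a from -0.11 to 0.57, Gatm from -0.22 to 0.48, Efhd1 from -0.22 to 0.40, Arsg from -0.24 to 0.34, Gltp from -0.19 to 0.55, Th from -0.998 to 0.0659, Ncmap from -0.0553 to 0.82. Slc6a3 was not a DEG with robust estimation, and Gfap was one in several alternatives.

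Same-numbered mice had correlations of deviations of 0.307, -0.074 and 0.244 for numbers 1, 2 and 3, and 4 of 6 mice correlated best with their own number. In the fit with the replicate block the 9 genes had log2 fold changes from 0.0005 to 0.24 and 0 of 9 had an unadjusted p below 0.05 (smallest 0.142 for Mbp, edgeR's quasi-likelihood test). With 3 mice a group the intervals of the 9 genes stayed wide.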
